A study of Mus musculus with 12 samples.

Results

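A set of 9 genes of the goblet cell, the mucus-secreting cell of the intestinal epithelium, were followed in sorted intestinal stem cells (ISCs). They were *Muc2*, *Fcgbp*, *Clca1*, *Zg16*, *Tff3*, *Spink4*, *Agr2*, *Spdef* and *Muc13*, taken by symbol from the 47729 genes of the count table, and each symbol named 1 gene. RNA was sequenced from 12 libraries in 4 groups of 3. All libraries came from *Lgr5-EGFP-IRES-creERT2* mice of both sexes aged 8 to 10 weeks, in which green fluorescent protein is made from the *Lgr5* locus, and the cells were sorted from small intestinal crypts as live EpCAM+ CD24- cells of high green fluorescence, without the blood and endothelial markers CD45, TER119 and CD31. The Stress group had been restrained for 3 h on 1 day (the labels call it CRS) and the Ctrl group had gone without food and water for the same time. The CORT group had received 1 intraperitoneal injection of corticosterone, the main glucocorticoid of the mouse, at 5 mg/kg in sulfobutylether-β-cyclodextrin, and the Vehicle group that solution alone. Libraries are named by the numbers in their labels, which for Stress are 1+2, 3 and 4+5+6, so that some may be pools. The sex behind each library is not given.

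Goblet cells arise from stem cells of the crypt through secretory progenitors that express *Atoh1*, and then switch on *Spdef*. They fill their granules with the gel-forming mucin MUC2, which is folded with the help of AGR2, heavily glycosylated, and released together with FCGBP, CLCA1, ZG16, TFF3 and SPINK4. MUC13 is of another kind, a mucin anchored in the cell membrane that is also made by other cells of the crypt.

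In this sorted population the goblet genes were present, and those other than *Muc13* summed to less than the stem cell markers. The 8 members other than *Muc13* added up to between 426 and 1533 CPM (counts scaled to the library size with TMM factors), whereas 6 stem cell markers together reached 10680 to 13940 CPM. The median of the 6 markers was 434 to 607 CPM in a library. By mean over 12 libraries the highest members were *Muc13* (985 CPM) and *Fcgbp* (351 CPM). All 9 members passed the filter on low counts in every comparison. Per unit of length, in FPKM (fragments scaled by gene length and depth), the order of the means over 12 libraries was *Muc13* (298), *Tff3* (213), *Spink4* (101), *Agr2* (73.6), *Zg16* (50.3), *Fcgbp* (42.5), *Muc2* (13.8), *Clca1* (7.82) and *Spdef* (4.14). The *Muc2* value is a sum over separately deposited stretches of the gene, and so is not a level per length of the whole gene. *Zg16* ranked 6 of 9 in Ctrl, Vehicle and CORT and 3 of 9 in Stress. Because these are bulk libraries, fewer cells of a type and less RNA per cell cannot be told apart.

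The promoters are shown for the secreted products *Muc2* and *Fcgbp* and for the factor *Spdef*, which had the largest log2 fold changes, in either direction, among the members with a RefSeq promoter. RefSeq (GRCm38.p6) gave a promoter for 5 of the 9 members, and the 250 bases before the start are printed 5′ to 3′ on the gene's own strand. The windows are chr7:141690090-141690339 on the plus strand for *Muc2*, chr7:28070986-28071235 on the plus strand for *Fcgbp* and chr17:27728952-27729201 on the minus strand for *Spdef*. Capitals mark every match, on either strand, to any of 11 short motifs.
Muc2: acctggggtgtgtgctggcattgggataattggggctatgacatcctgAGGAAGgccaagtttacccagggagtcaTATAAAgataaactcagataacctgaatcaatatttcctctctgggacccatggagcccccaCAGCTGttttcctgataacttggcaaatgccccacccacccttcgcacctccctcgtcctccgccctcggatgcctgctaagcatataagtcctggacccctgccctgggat
Fcgbp: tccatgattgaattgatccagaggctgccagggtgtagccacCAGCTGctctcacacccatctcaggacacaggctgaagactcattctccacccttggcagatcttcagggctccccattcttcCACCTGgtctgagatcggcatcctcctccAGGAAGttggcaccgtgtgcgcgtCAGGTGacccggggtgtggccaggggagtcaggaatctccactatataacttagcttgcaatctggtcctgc
Spdef: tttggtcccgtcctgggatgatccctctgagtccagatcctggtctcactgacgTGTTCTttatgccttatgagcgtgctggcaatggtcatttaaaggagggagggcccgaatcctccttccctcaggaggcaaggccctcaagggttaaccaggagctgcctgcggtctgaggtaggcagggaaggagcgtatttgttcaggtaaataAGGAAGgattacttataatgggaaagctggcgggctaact
The 11 motifs were chosen with the results known, and all 11 are given here with the share of 32851 promoter windows of the same length that hold them. The E-box CAGCTG (13% of windows) was found in *Muc2* and *Fcgbp*, and the E-box CAGGTG (17.2%) in *Fcgbp*. The E-box CAGATG (14.4%) was found in 1 of the windows of *Muc13*, and the TATA box TATAAA (12.4%) in *Muc2*. The glucocorticoid receptor half-site AGAACA (16.1%) was found in *Spdef*, read as TGTTCT on the printed strand. The ETS core AGGAAG (29.5%) was found in *Muc2*, *Fcgbp* and *Spdef*. The other 5 motifs, the forkhead cores TGTTTAC (3.17%) and TGTTTGC (4.3%), the E-box CACGTG (6.02%), the ETS core CCGGAT (4.94%) and the CDX-type TTTATT (18.1%), matched no member. These are matches of letters in a window and were not tested as sites.

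The first comparison asked how a session of restraint altered the goblet genes. *Zg16* and *Clca1* rose, and the other 7 did not pass the test. With edgeR's quasi-likelihood test over 13722 genes and adjusted p under 0.05, 2 of 9 members were called higher and 0 lower, against 1.30% of all genes called higher and 0.590% called lower. DESeq2 also called 2 higher and 0 lower, against 2.59% of all genes called higher and 1.28% called lower. At an unadjusted edgeR p under 0.05 were 4 members, and 2083 of the 13722 genes. The median log2 fold change of the 9 was 0.13, and that of all genes tested was -0.00.

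**Figure D1:**
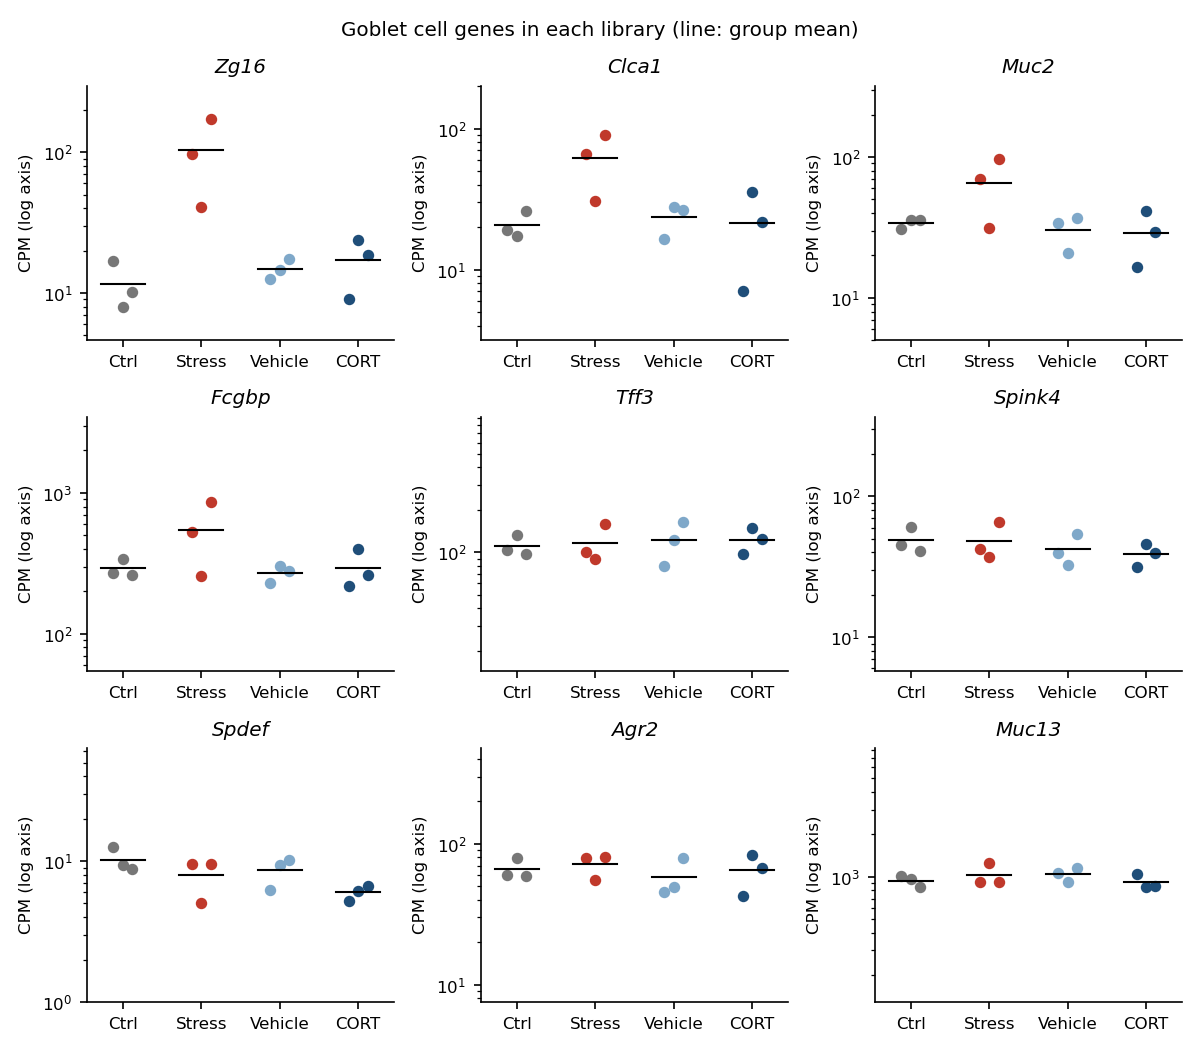
CPM of each of the 9 genes in every library, on log axes that all span the same fold range, with 1 point per library and a line at the mean of each group of 3. *Zg16* and *Clca1* lie higher in all 3 Stress libraries than in any Ctrl library, and the groups overlap for the other 7 genes.

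*Zg16* encodes a lectin-like granule protein that binds bacterial cell walls. Its level was 16.9, 7.90 and 10.1 CPM in Ctrl 1, 2 and 3, and 97.7, 40.6 and 172 CPM in Stress 1+2, 3 and 4+5+6. Every Stress library stood above every Ctrl library. The log2 fold change was 3.15 ± 0.47 (SE, n = 3 against 3, edgeR quasi-likelihood test, adjusted p = 0.0108). The call was lost without Ctrl 2 (adjusted p = 0.0719) or without Ctrl 3 (adjusted p = 0.0827) in the edgeR fit, with log2 fold changes of 2.57 to 3.53 over the 6 fits that each left out 1 library.

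*Clca1* encodes a secreted metalloprotease of the mucus. Its level was 19.0, 17.4 and 25.9 CPM in Ctrl 1, 2 and 3, and 66.4, 30.7 and 89.9 CPM in Stress 1+2, 3 and 4+5+6. The groups did not overlap, although Stress 3 stood close to Ctrl 3. The log2 fold change was 1.59 ± 0.32 (SE, n = 3 against 3, edgeR quasi-likelihood test, adjusted p = 0.0392). Of the 6 edgeR fits without 1 library, only the fit without Stress 3 kept it, and the adjusted p reached 0.194 without Ctrl 1. In the 5 other fits the share of all genes called higher was 0.297% to 0.568%. The call was also lost with limma on the FPKM and in the edgeR fit on all 12 libraries (adjusted p = 0.0849), and with no filter on low counts both *Zg16* (adjusted p = 0.0906) and *Clca1* (adjusted p = 0.176) lost it, in a fit that called 0.169% of all genes higher. Over all genes with a mean of at least 1 CPM, 10.5% had every Stress library above every Ctrl library, as did 2 of the 9 members.

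*Muc2* and *Fcgbp*, the scaffold mucin and the abundant protein bound to it, had higher means in Stress but did not pass the test. *Muc2* was at 30.6, 35.6 and 35.9 CPM in Ctrl 1, 2 and 3, and at 69.4, 31.2 and 96.5 CPM in Stress 1+2, 3 and 4+5+6. Stress 3 lay within the Ctrl range and the other Stress libraries above it. The log2 fold change of *Muc2* was 0.95 ± 0.31 (SE, edgeR quasi-likelihood test, adjusted p = 0.173). *Fcgbp* was at 270.1, 342 and 262 CPM in Ctrl and at 528, 257 and 860 CPM in Stress, in the same order of libraries. Stress 3 was again the lowest of the 3, just under the Ctrl range. The log2 fold change of *Fcgbp* was 0.91 ± 0.33 (SE, edgeR quasi-likelihood test, adjusted p = 0.220). Without Stress 3, edgeR called both *Muc2* (adjusted p = 7.2e-04) and *Fcgbp* (adjusted p = 0.0024), so that 4 members were called. In that fit calls over all genes also went up, to 3.94% higher and 2.04% lower.

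The reads of *Muc2* were uneven along the gene, which was deposited in separate stretches. The first and last stretches were the same in every library, and the division between them differed between libraries. The last stretch, chr7:141744612-141754693 (mm10), held 70.6% to 97.4% of the summed FPKM of the gene over the 12 libraries. Its FPKM was 8.77, 11.2 and 9.71 in Ctrl and 18.7, 8.23 and 28.1 in Stress. Stress 4+5+6 was the highest and Stress 3 the lowest Stress library in this stretch, as over the whole gene. The first stretch, chr7:141690340-141698782, ranged from 0.116 to 2.00 FPKM. The cause of the unevenness was not tested.

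*Tff3* and *Spink4*, a trefoil peptide of mucosal repair and a protease inhibitor of goblet granules, showed no such difference. *Tff3* was at 105, 132 and 97.4 CPM in Ctrl and at 99.6, 89.7 and 160 CPM in Stress (log2 fold change 0.07 ± 0.20 SE, edgeR adjusted p = 0.919). *Spink4* was at 44.9, 60.4 and 40.7 CPM in Ctrl and at 42.5, 36.9 and 66.0 CPM in Stress (log2 fold change -0.00 ± 0.21 SE, edgeR adjusted p = 0.997). Both groups overlapped, and Stress 4+5+6 was the highest library for each gene.

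*Agr2*, the disulfide isomerase that folds MUC2, was at 60.5, 78.7 and 59.2 CPM in Ctrl and at 78.8, 55.6 and 80.3 CPM in Stress (log2 fold change 0.12 ± 0.16 SE, edgeR adjusted p = 0.801). *Spdef*, the factor of goblet maturation, was at 12.5, 9.45 and 8.72 CPM in Ctrl and at 9.58, 5.03 and 9.47 CPM in Stress (log2 fold change -0.35 ± 0.28 SE, edgeR adjusted p = 0.641). *Muc13* was at 1008, 961 and 846 CPM in Ctrl and at 913, 1246 and 926 CPM in Stress (log2 fold change 0.13 ± 0.13 SE, edgeR adjusted p = 0.689). The groups overlapped for all 3 genes, and Stress 3 was the lowest Stress library for *Agr2* and *Spdef* but the highest for *Muc13*.

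**Figure D2:**
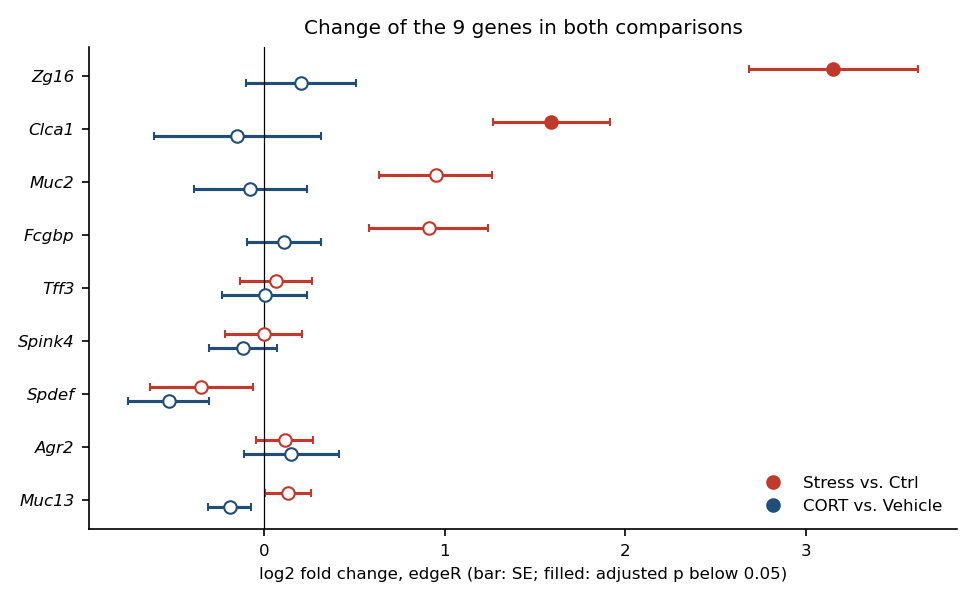
Log2 fold change of each of the 9 genes (edgeR, bars are SE) in Stress against Ctrl and in CORT against Vehicle, with filled points at an adjusted p under 0.05. *Zg16* (3.15) and *Clca1* (1.59) in Stress are the filled points, and all CORT points are open and lie between -0.53 and 0.20.

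The members were also set in proportion to each other, as a ratio within a library, which does not depend on its size. *Zg16* divided by *Tff3* (CPM over CPM) was between 0.452 and 1.08 in the 3 Stress libraries and between 0.0597 and 0.162 in the other 9. *Clca1* divided by *Tff3* was between 0.342 and 0.666 in Stress and between 0.0727 and 0.266 in the other 9. For both genes the Stress libraries stood apart from all others, Stress 3 included. For *Muc2* and *Fcgbp* they did not. *Muc2* divided by *Tff3* was between 0.348 and 0.696 in Stress and between 0.169 and 0.426 in the other 9. *Fcgbp* divided by *Tff3* was between 2.863 and 5.381 in Stress and between 1.709 and 2.875 in the other 9. *Spink4* divided by *Tff3* was between 0.412 and 0.426 in Stress, inside the 0.268 to 0.497 of the other 9. *Tff3* was taken as the reference after its values were seen, and the ratios were not tested. *Zg16* and *Clca1* had already been called from the same values, so their separation in the ratios adds no support to the calls.

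**Figure D3:**
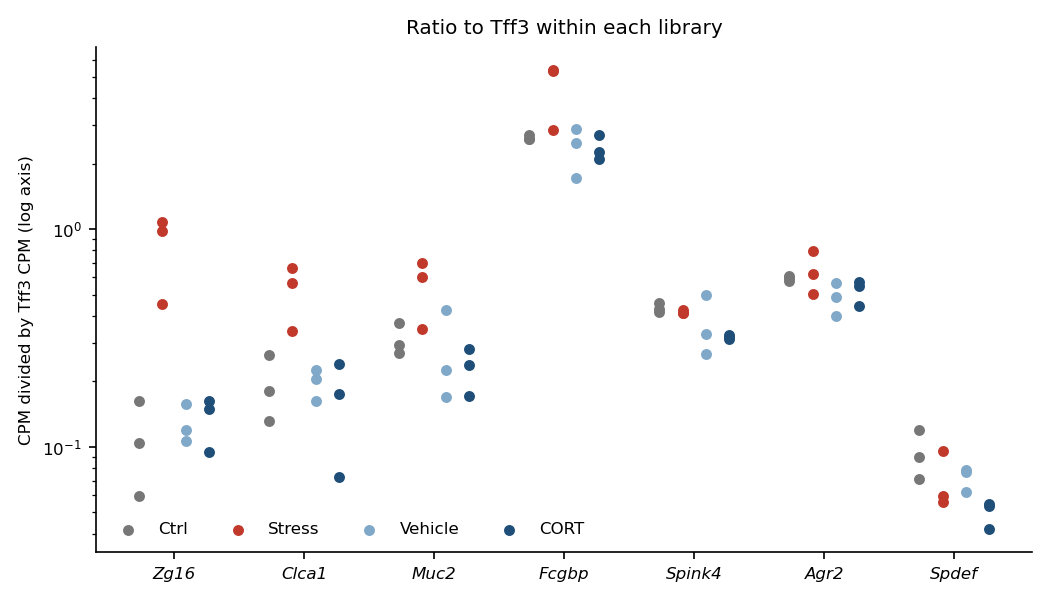
CPM of 7 goblet genes divided by the CPM of *Tff3* in the same library, on a log axis, with 1 point per library coloured by group. The Stress points of *Zg16* (0.452 to 1.08) and *Clca1* (0.342 to 0.666) lie above all points of the other groups, while those of *Spink4* lie among them.

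Markers of absorptive enterocytes moved with these genes. Of 6 enterocyte markers (*Alpi*, *Apoa1*, *Apoa4*, *Fabp1*, *Fabp2* and *Sis*), 5 were called higher in Stress by edgeR, against 1.30% of all genes, and none of the 6 was at 0 in any library. Their summed level was 179 to 202 CPM in Ctrl, 830, 322 and 1685 CPM in Stress 1+2, 3 and 4+5+6, 137 to 190 CPM in Vehicle and 125 to 191 CPM in CORT. Stress 4+5+6 was the highest and Stress 3 the lowest Stress library, as for *Zg16*, *Clca1*, *Muc2* and *Fcgbp*, and also for *Tff3*, *Spink4* and *Agr2*, which were not called. Of 6 Paneth cell markers, 1 was called higher in Stress (*Mmp7*), and their sum was 118 to 152 CPM in Ctrl and 151 to 235 CPM in Stress. The part of these cells in the result was not tested. Blood markers summed to at most 6.61 CPM and stromal and endothelial markers to at most 4.10 CPM in any library.

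**Figure D4:**
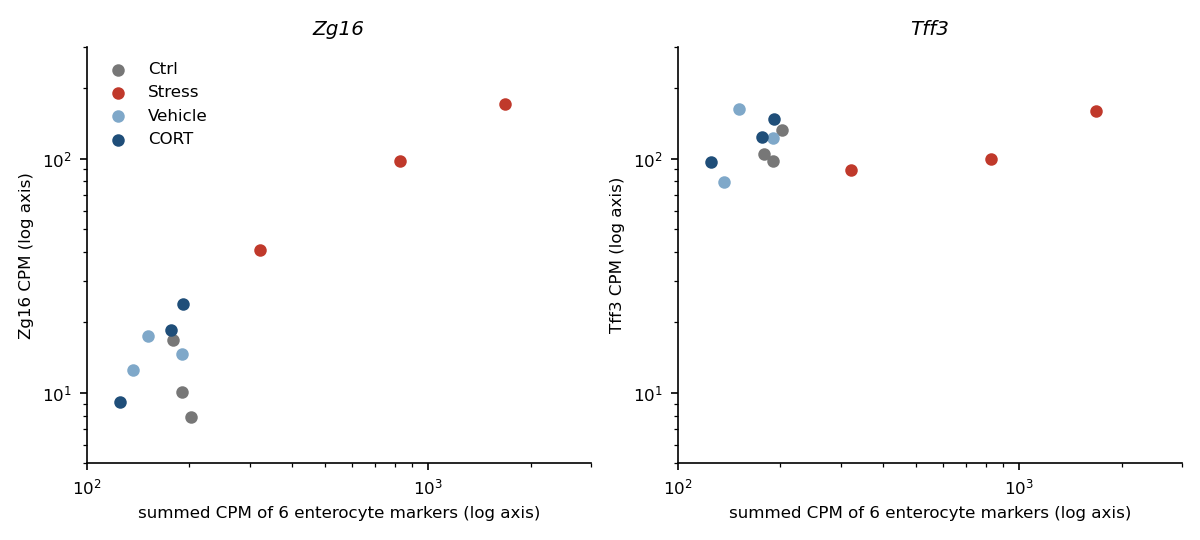
CPM of *Zg16* and of *Tff3* against the summed CPM of 6 enterocyte markers in the 12 libraries, on log axes, with 1 point per library coloured by group. The 3 Stress libraries, at 322 to 1685 CPM of the markers, follow the same order in *Zg16* (40.6 to 172 CPM) and in *Tff3* (89.7 to 160 CPM), and the *Tff3* values lie within the 79.7 to 163 CPM of the other groups.

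The second comparison asked whether corticosterone alone altered the same genes. No member passed the test. With edgeR's quasi-likelihood test over 14656 genes, 0 of 9 members were called, against 3.64% of all genes called higher and 4.50% called lower. DESeq2 also called 0, against 6.16% of all genes called higher and 7.23% called lower. At an unadjusted edgeR p under 0.05 was 1 member (*Spdef*), and 3428 of the 14656 genes. The median log2 fold change of the 9 was -0.08 and moved to 0.21 without CORT 2, and that of all genes was 0.01.

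*Zg16* was at 12.5, 14.7 and 17.4 CPM in Vehicle 3, 5 and 6, and at 9.12, 24.0 and 18.6 CPM in CORT 2, 4 and 5 (log2 fold change 0.20 ± 0.31 SE, edgeR adjusted p = 0.752). *Clca1* was at 16.4, 27.6 and 26.6 CPM in Vehicle and at 7.01, 35.3 and 21.6 CPM in CORT (log2 fold change -0.15 ± 0.46 SE, edgeR adjusted p = 0.894). CORT 2 was the lowest and CORT 4 the highest CORT library for both, and the groups overlapped. *Muc2* was at 33.9, 20.7 and 36.9 CPM in Vehicle and at 16.5, 41.4 and 29.4 CPM in CORT (log2 fold change -0.08 ± 0.31 SE, edgeR adjusted p = 0.918). *Fcgbp* was at 229, 305 and 279 CPM in Vehicle and at 217, 400.4 and 261 CPM in CORT (log2 fold change 0.11 ± 0.20 SE, edgeR adjusted p = 0.803). CORT 2 was again the lowest CORT library and CORT 4 the highest. CORT libraries held 29426183 to 69533214 counts in total and Vehicle libraries 16465961 to 31280267, so that CORT 2 and CORT 4 were deeper than any Vehicle library and CORT 5 was not.

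*Spdef* was at 6.24, 9.43 and 10.2 CPM in Vehicle and at 5.25, 6.16 and 6.64 CPM in CORT. The groups overlapped at Vehicle 3. The log2 fold change was -0.53 ± 0.22 (SE, edgeR quasi-likelihood test, adjusted p = 0.194). *Muc13* was at 1070, 917 and 1164 CPM in Vehicle and at 1052, 849 and 865 CPM in CORT (log2 fold change -0.19 ± 0.12 SE, edgeR adjusted p = 0.383). *Tff3*, *Spink4* and *Agr2* had log2 fold changes of 0.00, -0.12 and 0.15 (SE 0.23, 0.19 and 0.26). Their groups overlapped as well.

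The effects of restraint and corticosterone were then compared with each other in 1 edgeR fit on all 12 libraries. For *Zg16* the log2 fold change in Stress exceeded that in CORT by 2.95 ± 0.64 (SE, edgeR quasi-likelihood test, adjusted p = 0.0667), which did not pass the threshold. For *Clca1* the difference was 1.73 ± 0.66 (SE, edgeR adjusted p = 0.286). In this test 0 of 9 members were called, against 0.388% of 14415 genes. At an unadjusted edgeR p under 0.05 were 2 members, and 1798 of the 14415 genes. DESeq2 called 1 member (*Zg16*, adjusted p = 0.0104), and of all genes it called 2.03% higher and 0.990% lower. The call on *Zg16* was also made without Stress 3 (edgeR, adjusted p = 0.0065), in a fit that called 1.23% of all genes higher and 0.391% lower. It was thus not shown by the main test that the members responded differently to the 2 treatments.

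Vehicle and Ctrl, both controls of other handling, gave the background between the arms of the study. With edgeR 0 of 9 members were called, against 0.799% of 13642 genes. At an unadjusted edgeR p under 0.05 were 0 members, and 1512 of the 13642 genes. DESeq2 called 0 as well, against 1.33% of all genes called higher and 0.995% called lower. The median log2 fold change of the members was -0.10, with the highest for *Zg16* (0.36).

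Transcription factors of the secretory lineage were lower where they were called. Over all genes, 0.590% were called lower in Stress and 4.50% in CORT. A list of 10 transcription factors was followed, made up of secretory factors and the Notch target *Hes1*. Of these 10, 2 were called lower in Stress (*Foxa1* and *Foxa3*) and 4 in CORT (*Foxa1*, *Foxa3*, *Xbp1* and *Klf4*), with 0 called higher in either. The median log2 fold changes of the list were -0.40 and -0.62. *Foxa1* was at 43.0, 50.1 and 45.4 CPM in Ctrl, 30.5, 29.6 and 29.3 CPM in Stress, 50.7, 41.3 and 43.3 CPM in Vehicle and 21.6, 26.5 and 31.4 CPM in CORT. Neither treated group overlapped its control. Over all genes with a mean of at least 1 CPM, 10.6% had every Stress library below every Ctrl library. For CORT below Vehicle the share was 15.9%. *Foxa1* fell by 0.63 on the log2 scale in Stress (edgeR adjusted p = 0.0190) and by 0.77 in CORT (edgeR adjusted p = 0.0130). *Foxa3*, the other forkhead factor called, fell by 0.63 in Stress (edgeR adjusted p = 0.0358) and by 0.96 in CORT (edgeR adjusted p = 0.0027). *Xbp1*, a factor of the secretory protein load, fell by 0.87 in CORT (edgeR adjusted p = 0.0142), and *Klf4*, a factor of goblet differentiation, fell by 0.86 (edgeR adjusted p = 0.0348). *Hes1*, a Notch target and the highest of the list, was not called in Stress (log2 fold change -0.41, edgeR adjusted p = 0.165) or in CORT (0.11, edgeR adjusted p = 0.683). *Atoh1*, named here after its values were seen, was not called in Stress (log2 fold change -0.55, edgeR adjusted p = 0.416) or in CORT (-0.03, edgeR adjusted p = 0.953). Of the edgeR fits that left out 1 library, *Foxa1* was called in 1 of 6 in Stress and 5 of 6 in CORT, *Foxa3* in 2 of 6 and 6 of 6, *Xbp1* in 5 of 6 in CORT, and *Klf4* in 0 of 6. Paneth cell markers, which belong to another secretory type, moved with these factors in CORT: 4 of 6 were called lower and 0 higher, their sum was 175 to 203 CPM in Vehicle and 93.9 to 109 CPM in CORT, and none was at 0 in any library. Some stem cell markers were called lower too. *Ascl2* was called lower in Stress (log2 fold change -1.23, edgeR adjusted p = 3.4e-04) and in CORT (-0.998, edgeR adjusted p = 0.0114). *Lgr5* (-0.43, edgeR adjusted p = 0.0277) and *Smoc2* (-0.31, edgeR adjusted p = 0.0474) were called lower in CORT. In all, 1 of 6 was called lower in Stress and 3 of 6 in CORT, with 0 called higher. *Olfm4* (0.23) and *Slc12a2* (0.21) had log2 fold changes above 0 in Stress, as had *Olfm4* in CORT (0.15), without a call. The stem cell markers summed to 10690 to 12090 CPM in Ctrl and 11320 to 13940 CPM in Stress. In Vehicle and CORT their sums were 10680 to 11150 CPM and 10880 to 12120 CPM. Of 6 enteroendocrine markers edgeR called 0 in either comparison. Of 6 tuft cell markers 3 were tested, and 1 of these was called lower in CORT (*Pou2f3*). The part of such cells in the result was not tested.

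**Figure D5:**
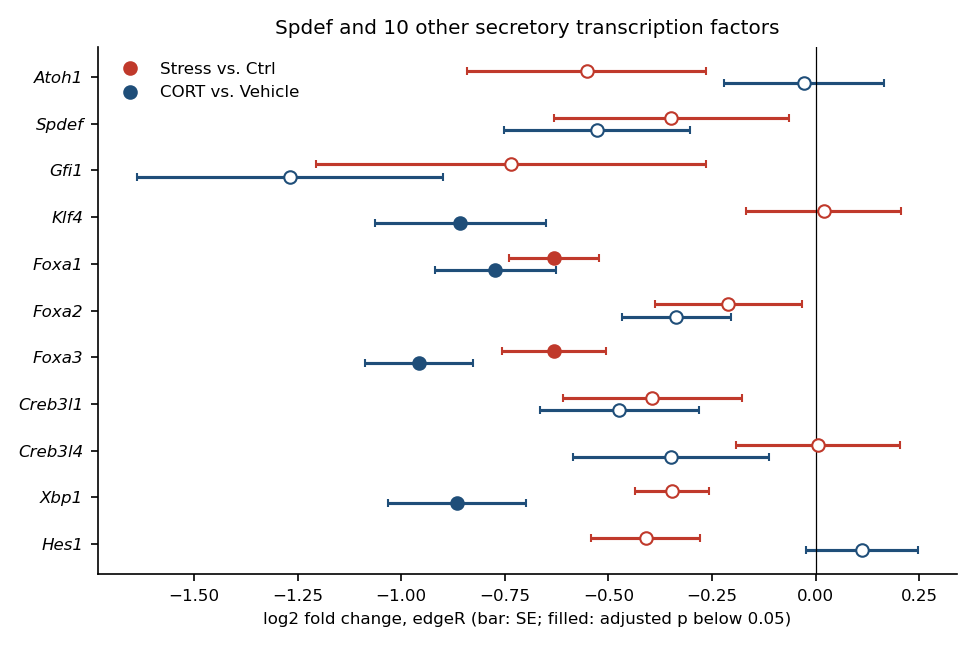
Log2 fold change (edgeR, bars are SE) of *Spdef* and 10 other transcription factors in Stress against Ctrl and CORT against Vehicle, with filled points at an adjusted p under 0.05. The 10 are secretory factors and the Notch target *Hes1*. The filled points are *Foxa1* and *Foxa3* in both comparisons and *Xbp1* and *Klf4* in CORT, and all of them lie below 0.

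Of 17 mucin O-glycosylation genes, 15 were tested in Stress and 14 in CORT. Of those tested, 1 was called in Stress and 2 in CORT, all higher, against 1.30% and 3.64% of all genes called higher. *B3gnt3*, which extends mucin glycans, rose in both comparisons, from 109, 120 and 115 CPM in Ctrl to 193, 190 and 217 CPM in Stress (log2 fold change 0.80, edgeR adjusted p = 0.0021) and from 140, 149 and 158 CPM in Vehicle to 307, 305 and 294 CPM in CORT (1.02, edgeR adjusted p = 1.5e-04). It was called in all 6 fits without 1 library in each comparison. *Galnt7*, which starts or extends O-glycans, rose by 0.36 on the log2 scale in CORT (edgeR adjusted p = 0.0325) and was called in 1 of 6 fits without 1 library. *B4galnt2* and *Galnt4*, the others of the 3 highest in the list, were not called.

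Of 23 genes of mucus granules and secretion, 1 was called higher and 1 lower in Stress, and 1 higher and 4 lower in CORT. Over all genes, 1.30% were called higher and 0.590% lower in Stress, and 3.64% higher and 4.50% lower in CORT. *Atp2c2*, a calcium pump of the Golgi, rose by 0.70 on the log2 scale in Stress (edgeR adjusted p = 0.0190) and 0.88 in CORT (edgeR adjusted p = 0.0025). *Rab3d*, a small GTPase of secretory granules, fell by 0.43 in Stress (edgeR adjusted p = 0.0444) and by 0.67 in CORT (edgeR adjusted p = 0.0025). In CORT *Mlph*, *Tspan1* and *Nlrp6* were also called lower (log2 fold changes -0.44, -0.78 and -0.39). *Pdia6* and *Pdia4*, isomerases of the endoplasmic reticulum, were not called. Without 1 library, *Rab3d* was called in 1 of 6 fits in Stress and 6 of 6 in CORT, *Atp2c2* in 2 of 6 and 6 of 6, and *Mlph*, *Tspan1* and *Nlrp6* in 1 of 6 each in CORT.

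Of 10 relatives of the members in the table, 7 were tested, and 1 was called higher in Stress, against 1.30% of all genes. This was *Spink1*, a trypsin inhibitor, which rose from 1.40, 1.74 and 1.95 CPM to 11.1, 3.58 and 22.6 CPM (log2 fold change 2.87, edgeR adjusted p = 0.0350). Stress 3 was again the lowest of the Stress libraries, and the call held in 1 of 6 fits without 1 library. *Clca3b*, *Clca4b* and *Clca3a2*, the highest of the relatives, were not called in Stress or CORT. Of the other mucins none was called in either comparison by edgeR (*Muc4*, *Muc3* and *Muc3a* were the highest), and 5 of the 11 in the table were at 0 in all libraries. Of 4 other antimicrobial products 3 were tested, and 1 was called lower in CORT, against 4.50% of all genes. This was *Itln1* (log2 fold change -0.68, edgeR adjusted p = 0.0384), and the call held in 2 of 6 fits without 1 library, while *Lypd8* and *Ang4* were not called.

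Over the 12 libraries the levels of the 8 members other than *Muc13* varied together. All 28 pairs had a positive Pearson r of log2(CPM + 1), from 0.12 to 0.88, and still from 0.44 to 0.83 after the group means were subtracted. *Muc13* had a negative r with each of the 8, from -0.38 to -0.05, and from -0.78 to -0.14 after the group means were subtracted. These points share libraries and treatments and the values are a description. The 10 genes most like *Muc2* among 10622 with a mean of at least 5 CPM were *Dgat1* (r = 0.93), *Krt20*, *Atp6v0a2*, *Slc7a9*, *Slc27a4*, *Tubal3*, *Slc26a6*, *Sepp1*, *Lpgat1* and *Car4*. In that order *Clca1* was at place 27, *Fcgbp* at 29, *Zg16* at 82, *Spink4* at 199, *Agr2* at 216, *Tff3* at 1836, *Spdef* at 1876 and *Muc13* at 7215. After the group means were subtracted, the 10 were *Chpf2* (r = 0.94), *Maf*, *Sprr2a2*, *Atp2a3*, *Paqr7*, *Dio1*, *Sprr2a1*, *Mme*, *Krt20* and *Naaladl1*, of which 1 (*Krt20*) was in the first list.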

How the data were processed

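RNA was measured as paired-end reads of 150 bp in 12 libraries of 4 groups of 3. The authors deposited estimated counts, FPKM and TPM per gene. The labels' processing notes name HISAT2 2.2.1, StringTie 2.2.1 and mm10, and the methods name another counter. Per the file headers the authors also deposited mean coverage per base of each gene, not scaled to depth. The deposited counts equal covered bases divided by about 75, so they were treated as estimated counts and rounded. FPKM and TPM are the authors' deposited values, scaled by gene length and depth. Where a gene was deposited in separate stretches, as *Muc2* was, the values of its stretches were summed. Whether counting used strand is not given in the sources used here. By annotated span, *Zg16* and *Muc13* overlap genes on the other strand, and reads of overlapping genes cannot be told apart. The genes that overlap *Zg16* held 0 counts over all libraries, and the gene that overlaps *Muc13* held 244. Totals ranged from 15934907 to 69533214 counts.

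Genes were filtered with filterByExpr, normalised with TMM and tested with edgeR 4.0.16 (quasi-likelihood, Benjamini-Hochberg, R 4.3.3) on the 6 libraries of a comparison, or on 12 for the difference between effects, with calls at an adjusted p under 0.05. The fits were tested on simulated data. Alternatives were DESeq2 1.42.0, other scaling factors, no filter or at least 10 counts in every library, limma 3.58.1 on log2(FPKM + 1) and log2(FPKM + 0.1), 1 fit on 12 libraries, and each library left out. The study states that its groups held biologically independent samples, but the labels do not tie libraries to animals, and p-values measure the spread between libraries. Named genes were all members, of each pathway list every gene called in Stress or CORT and the 3 highest by mean CPM, marker genes beside a result, and the 10 most like *Muc2*. The members, lists and motifs were chosen with earlier results of these data known. Promoters and their motifs came from RefSeq GRCm38.p6.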

Additional observations from a re-analysis of the deposited data

How the results depend on the processing

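No paired analysis was made, because the study randomized mice to treatments and neither it nor the labels describe pairs. The label numbers would not give pairs either. Vehicle and CORT share only the number 5. Ctrl and Stress share only the number 3 as a library of its own, since 1 and 2 are joined in 1 Stress library. In Stress against Ctrl, 2 members were called higher; this became 0 with no filter on low counts, 1 with limma on log2(FPKM + 1), 1 with log2(FPKM + 0.1), 1 in the fit on all 12 libraries, 0 to 4 without 1 library, and 1 with Stress 3 alone (chosen after seeing the data, with this 1 library assumed to vary as the Ctrl libraries do, so no support for a call), where the median log2 fold change of the members moved to -0.18. Over all genes the share called higher was 1.30% in the main fit, 0.169% with no filter, 0.423% and 0.437% with limma, 2.14% on 12 libraries and 0.297% to 3.94% without 1 library. With Stress 3 alone the sign turned for *Muc2* (-0.13), *Fcgbp* (-0.18), *Tff3* (-0.31) and *Agr2* (-0.25). Without a filter the adjusted p was 0.0906 for *Zg16* and 0.176 for *Clca1*. The sign of *Spink4* in Stress turned with DESeq2 size factors (0.0028) and with at least 10 counts in every library (0.0031). Without 1 library the log2 fold changes in Stress ran from -0.29 to 0.18 for *Spink4*, -0.23 to 0.22 for *Tff3* and -0.027 to 0.21 for *Muc13*. In CORT the sign turned with limma on log2(FPKM + 1) for *Fcgbp* (-0.054) and *Tff3* (-0.030), and with log2(FPKM + 0.1) for both (-0.056 and -0.029). Without 1 library the CORT values ran from -0.23 to 0.28 for *Tff3*, -0.42 to 0.21 for *Muc2*, -0.27 to 0.11 for *Spink4*, -0.73 to 0.28 for *Clca1*, -0.18 to 0.29 for *Fcgbp*, -0.11 to 0.51 for *Zg16* and -0.078 to 0.45 for *Agr2*, and the median of the members reached 0.21. For the difference between the effects, 1 member (*Zg16*) was called with DESeq2, 1 with no filter, and 0 to 1 without 1 library. Of all genes, 2.03% were called higher in this contrast with DESeq2, 0.116% with no filter, and 0.0271% to 1.23% without 1 library. The Stress calls on *Foxa1*, *Foxa3*, *Rab3d*, *Atp2c2* and *Spink1* were lost with no filter and with limma at both pseudocounts. The CORT call on *Galnt7* was lost with limma at both, that on *Itln1* with no filter, and that on *Nlrp6* with no filter, upper-quartile factors and limma on log2(FPKM + 1). The 10 genes most like *Muc2* were shared in full with a pseudocount of 0.1 and 1 of them after group means were subtracted. The cause of these changes was not tested. With 3 libraries a group, differences of the size seen for *Muc2* and *Fcgbp* were not separable from the spread between Stress libraries.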

Other observations

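Between the control groups, Vehicle and Ctrl, 1 of the 7 relatives of the goblet genes that were tested was called, against 0.799% of all genes. *Clca4b*, a relative of *Clca1*, was at 381 ± 30.5 CPM (SD, n = 3) in Ctrl, 187 ± 53.7 CPM in Vehicle, 287 ± 9.25 CPM in CORT and 409 ± 49.1 CPM in Stress, and was lower in Vehicle than in Ctrl (log2 fold change -1.03 ± 0.17 SE, edgeR adjusted p = 0.0206). *Lypd8*, a secreted protein that binds flagella, was spread widely, with a mean of 769 CPM in Ctrl, 922 CPM in Stress, 1937 CPM in Vehicle and 1804 CPM in CORT, and from 895 to 2597 CPM within Vehicle; it was not called between Vehicle and Ctrl. *Muc3*, a membrane mucin, was at 49.9 ± 7.94 CPM in Ctrl and 139.5 ± 67.1 CPM in Vehicle (SD, n = 3 each) and was not called either. The Paneth cell marker *Mmp7* was higher in Vehicle than in Ctrl (log2 fold change 2.04, edgeR adjusted p = 1.8e-04) and lower in CORT than in Vehicle (-1.32, edgeR adjusted p = 4.8e-04).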
